A study of Mus musculus with 2 samples.

Results

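The antioxidant and glutathione enzymes are the proteins that remove superoxide, peroxides and reactive electrophiles and that keep cellular thiols reduced. The set is a list of 38 gene symbols, and a gene was included where the array annotation gave exactly that symbol. Of these, 35 genes were found, with 69 probe sets, among 18193 named genes and 45101 probe sets on the array. Prdx1, Prdx5 and Prdx6 had no probe set under their symbol alone. Superficial zone cells, the flattened chondrocytes of the articular surface, were taken from joints of femur and tibia in 4-day-old ICR mice. One culture received 10 μM retinoic acid, the hormone-like acid form of vitamin A, for 24 h (n = 1), and the control culture received none (n = 1). Both were grown in DMEM with 10% serum, and RNA from each was read on 1 Affymetrix mouse whole-genome expression array. The labels give neither a vehicle for the control nor the number of animals or preparations behind each culture.

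With 1 array per culture there is no replicate error, so no test was run and no p-value is given. Each ratio describes these arrays and can include a difference between cultures. The values are MAS5 signals in arbitrary units, and a gene is represented by its brightest probe set. Signals at or below an array's median (29.7 on the retinoic acid array, 26.5 on the control array) were raised to that median. A gene above the median on at least 1 array is called measured. All 35 genes found were above it on both arrays. The one repeat measurement is that several probe sets read the same gene. Their log2 ratios had a pooled SD of 0.30 over 4993 genes, and of 0.21 over the 16 antioxidant genes with more than 1 such probe set. That scatter lies within the same RNA. RNA per cell and the share of cells of a type cannot be told apart in bulk samples.

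Superoxide dismutases turn superoxide into hydrogen peroxide, and catalase, glutathione peroxidases and peroxiredoxins remove the peroxide. The peroxidases draw electrons from glutathione or thioredoxin, which glutathione reductase and thioredoxin reductase recharge with NADPH. Many of these genes are switched on by NRF2 (Nfe2l2), a transcription factor that KEAP1 marks for degradation until oxidants or electrophiles release it. In cartilage these systems are known for protecting chondrocytes, which live at low oxygen, from oxidants made during joint inflammation and ageing.

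The labelled treatment and tissue were checked first. The retinoid-degrading gene Cyp26b1 had a signal of 4624 on the retinoic acid array and 40.3 on the control array, and the retinoic acid receptor gene Rarb 1929 and 5.73. All 8 chondrocyte markers were above the median on both arrays. Among them Col2a1 (cartilage collagen) had 7366 with retinoic acid and 9538 in control, Acan (aggrecan) 157 and 5066, and the chondrocyte transcription factor gene Sox9 94.8 and 1024. Prg4, which encodes lubricin, had 1148 with retinoic acid and 1920 in control, and 4 of the 5 superficial zone markers were measured. Cilp was the fifth and was below the median on both arrays.

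Gpx3, which encodes a peroxide-removing enzyme, and Cat, the catalase gene, had the highest ratios of the set, followed by the thioredoxin inhibitor gene Txnip. The stress-induced genes Nqo1 and Hmox1 had the lowest. Gpx3, Cat, Txnip and Txnrd1 were at least 2-fold higher, which is 4 of 35 genes (11.4%) against 6.54% of all 11884 measured genes. Nqo1 and Hmox1 were at least 2-fold lower, which is 2 of 35 (5.71%) against 4.34% of all measured genes. The share lower is near that background, and the share higher rests on only 4 genes. After quantile normalization the split was 3 higher against 3 lower, beside 5.69% and 5.16% of all measured genes. The other 29 genes lay within 2-fold. Within 1.5-fold were 20 of the 35, against 8833 of all 11884 measured genes. The median log2 ratio of the 35 genes was 0.039, beside 0.017 over all measured genes. In the set 20 ratios were above 0 and 15 below, beside 6130 and 5754 over all measured genes. The median size of the log2 ratio, sign ignored, was 0.42 for the set and 0.31 for all measured genes. Among genes with a mean signal of at least 500 it was nearly equal, 0.27 for 20 set genes and 0.26 for all 3418.

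**Figure D1:**
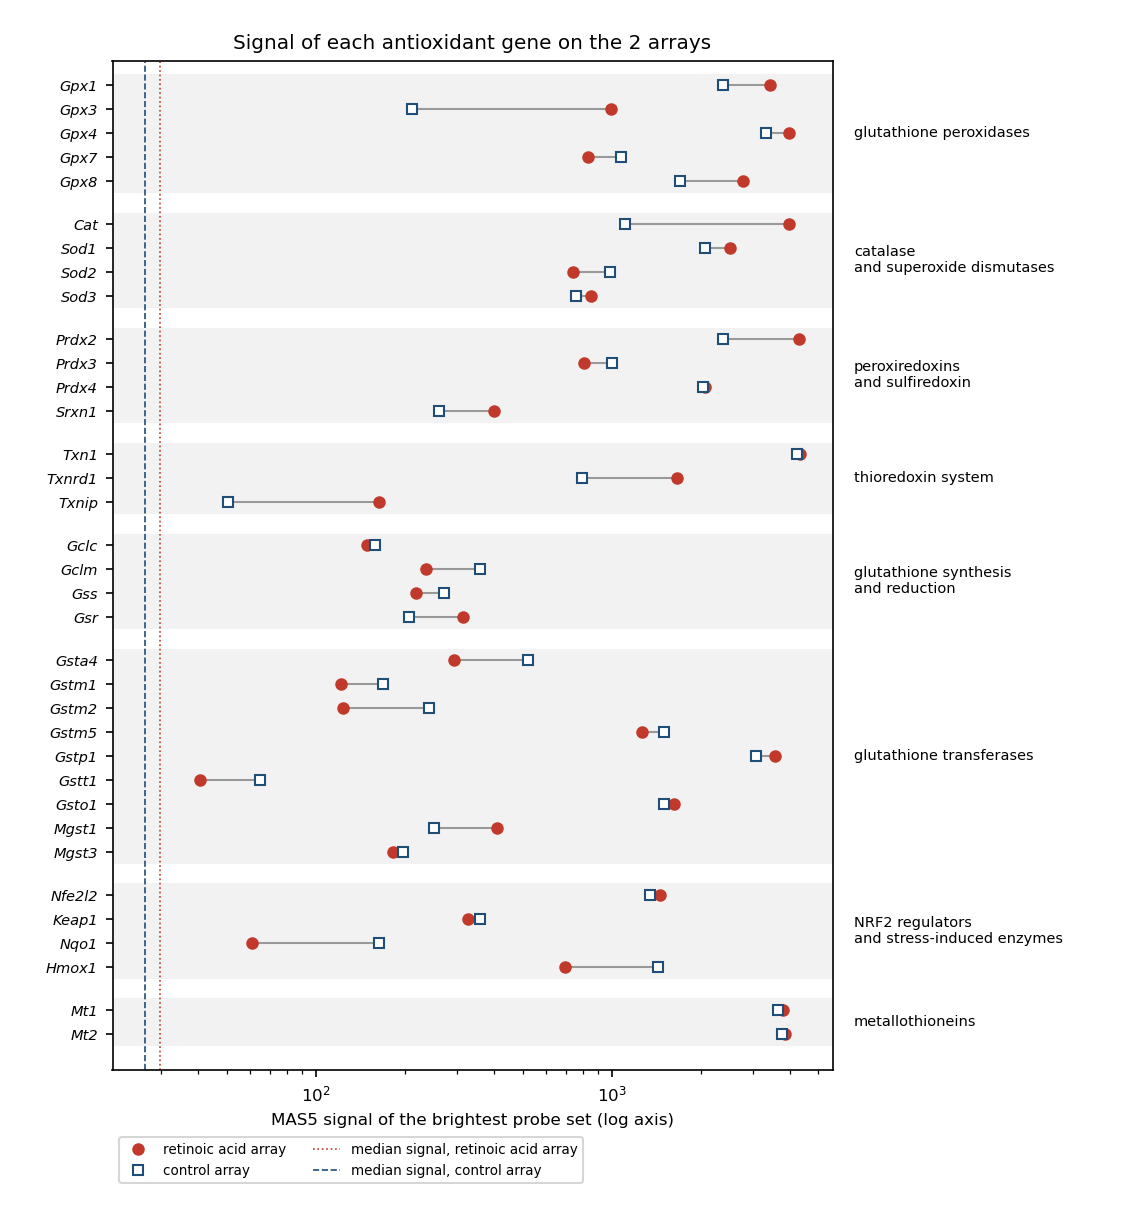
MAS5 signal (log axis) of the brightest probe set of each of the 35 genes, grouped by role, on the retinoic acid array (filled circles) and the control array (open squares); vertical lines mark each array's median over all probe sets, 29.7 and 26.5. The widest gaps are those of Gpx3, Cat and Txnip to the right and Nqo1 to the left, and Mt1, Mt2, Txn1 and Prdx4 have overlapping symbols.

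**Figure D2:**
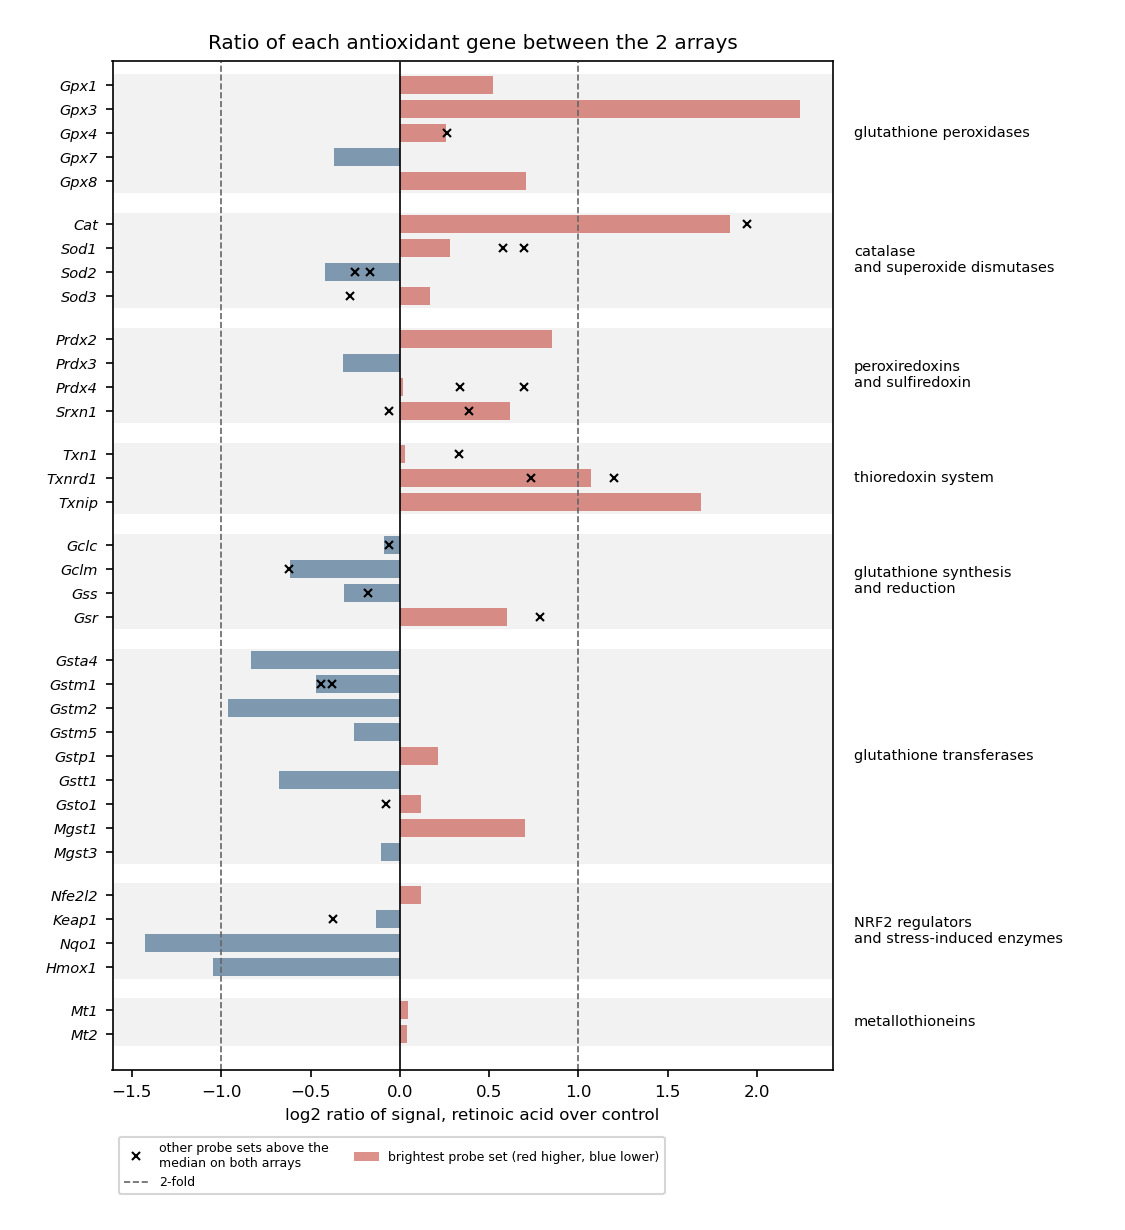
Log2 ratio of retinoic acid over control for the brightest probe set of each gene (bars, red above 0 and blue below) and for the gene's other probe sets above the median on both arrays (crosses); dashed lines mark 2-fold. Bars reach 2.24 for Gpx3 and −1.43 for Nqo1, and crosses fall on the other side of 0 from the bar for Sod3, Srxn1 and Gsto1.

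Glutathione peroxidases were mostly higher, led by the secreted form. Gpx3, which encodes the peroxidase of extracellular fluid, had a signal of 998 with retinoic acid and 211 in control, a 4.73-fold higher value. It ranked 144 from the top among 11884 genes. Gpx8, a peroxidase of the endoplasmic reticulum, had 2785 with retinoic acid and 1707 in control, 1.63-fold higher. Gpx1, the cytosolic form, had 3426 and 2386 on the same arrays, 1.44-fold higher. Gpx4, which reduces lipid peroxides in membranes and so guards against ferroptosis, had 3992 with retinoic acid and 3330 in control, and both of its probe sets gave a 1.20-fold higher value. Gpx7, the other reticulum form, was the exception at 835 with retinoic acid and 1078 in control, 1.29-fold lower. Of the 5 genes 4 had a log2 ratio above 0, against 6130 of all 11884 measured genes. Past 2-fold was 1 of the 5, and their median log2 ratio was 0.52. Signs in this family were the same under median, quantile and loess scaling.

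Gpx1, Gpx3, Gpx4 and Txnrd1 encode enzymes with selenocysteine in the active site, whereas Gpx7 and Gpx8 carry cysteine there. All 4 of these selenocysteine enzymes were higher, by log2 ratios of 0.26 to 2.24 with a median of 0.80. The 2 cysteine forms went opposite ways, at −0.37 and 0.71. This grouping was made with the values in view. Of selenocysteine enzymes outside the set, the thioredoxin reductase genes Txnrd2 and Txnrd3 had log2 ratios of −0.024 and 0.29. The methionine sulfoxide reductase gene Msrb1, also of this kind, had −0.020. Among 15 other genes of selenium handling and selenoproteins the median log2 ratio was 0.050. Past 2-fold were 2 of them, both higher, against 6.54% of all measured genes at least 2-fold higher. Those 2 were Dio2, the deiodinase that activates thyroid hormone (4998 with retinoic acid, 55.3 in control, 90.3-fold), and Selenop, the selenium carrier (1193 and 382, 3.13-fold).

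Catalase, the peroxisomal enzyme that splits hydrogen peroxide without drawing on glutathione or thioredoxin, stood out among the bright genes. Cat had 3981 with retinoic acid and 1106 in control on its brighter probe set, 3.60-fold higher. Its other probe set gave 3277 with retinoic acid and 850 in control, 3.85-fold higher. Both probe sets thus place it past 2-fold, and it ranked 262 of 11884 from the top. Among genes with a mean signal of at least 2000, Cat was the 1 of 11 antioxidant genes at least 2-fold higher, against 3.87% of 749 genes. The RefSeq window around the Cat start is shown because it holds the letters AGGTCA, the half-site that nuclear receptors, retinoic acid receptors among them, bind in pairs. It spans chr2:103485104-103485403 on the minus strand of GRCm38.p6, from 250 bases before to 50 after the start, and the half-site is in capitals.
Cat: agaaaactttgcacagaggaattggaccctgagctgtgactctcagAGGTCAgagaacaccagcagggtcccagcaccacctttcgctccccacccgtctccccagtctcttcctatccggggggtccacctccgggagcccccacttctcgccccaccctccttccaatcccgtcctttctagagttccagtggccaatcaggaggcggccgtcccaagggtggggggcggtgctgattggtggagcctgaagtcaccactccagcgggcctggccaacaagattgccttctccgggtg
The match begins 204 bases before the start. AGGTCA on either strand occurred in 16.3% of 32851 such windows and in 15.4% of 39 windows of the antioxidant genes, which cover 32 of the 38 symbols. One exact paired form with 5 bases between, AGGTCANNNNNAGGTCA, was in 0 of those 39. It was in only 3 of all windows, so its absence from the 39 says little. Other pairings were not searched. A match in letters is not evidence of binding.

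The superoxide dismutases differed little. Sod1, the cytosolic copper-zinc enzyme, had 2513 with retinoic acid and 2070 in control, 1.21-fold higher, and its next probe sets were 1.49-fold and 1.62-fold higher. Sod2, the mitochondrial manganese enzyme, had 740 with retinoic acid and 990 in control, 1.34-fold lower. Its other probe sets above the median on both arrays were 1.19-fold and 1.12-fold lower, and a dim one at least 1.70-fold lower. Sod3, the secreted form that binds the matrix, had 854 and 760 on its brighter probe set and 277 and 336 on the other (retinoic acid first), so its sign was not settled. With Sod2, the mitochondrial peroxiredoxin gene Prdx3 was also lower, at 805 with retinoic acid and 1003 in control, 1.25-fold. The mitochondrial thioredoxin gene Txn2, named after its value was seen, had 429 and 557 on these arrays, a log2 ratio of −0.38. Its reductase gene Txnrd2 had 86.6 with retinoic acid and 88.0 in control, and the mitochondrial glutaredoxin gene Glrx2 had 703 and 640, log2 ratios of −0.024 and 0.14.

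Peroxiredoxins are abundant thiol peroxidases recharged by thioredoxin, and sulfiredoxin repairs them after overoxidation. Prdx2, a cytosolic form, had 4300 with retinoic acid and 2378 in control, 1.81-fold higher. A dimmer Prdx2 probe set had 71.6 with retinoic acid and was below the median in control, so at least 2.70-fold higher. The median over both probe sets was 1.14 on the log2 scale, and past 2-fold, where the brightest alone gave 0.85. Prdx4, the form of the endoplasmic reticulum, had 2067 with retinoic acid and 2044 in control. Its dimmer probe sets were 1.26-fold and 1.62-fold higher, while the brightest ratio of 1.01 turned below 1 under quantile and loess scaling. Srxn1, which encodes sulfiredoxin, had 399 with retinoic acid and 261 in control, 1.53-fold higher, but a dimmer probe set was 1.04-fold lower. For Prdx1, 5 probe sets carry the symbol together with Gm21399 and cannot be assigned to 1 gene. They were 1.17-fold to 1.55-fold higher with retinoic acid.

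In the thioredoxin system the reductase and the inhibitor were both higher, while thioredoxin itself was not. Txnrd1, the cytosolic selenoenzyme that recharges thioredoxin, had 1668 with retinoic acid and 794 in control, 2.10-fold higher. Its other probe sets had 300 and 124 with retinoic acid, against 130 and 74.4 in control, 2.30-fold and 1.66-fold higher. All 3 probe sets lay on the same side, but the brightest log2 ratio of 1.07 was 0.98, just under 2-fold, after quantile normalization. Txnip, which encodes the arrestin-like protein that binds thioredoxin and limits glucose uptake, had 163 with retinoic acid and 50.6 in control, 3.23-fold higher. A second Txnip probe set had 42.9 with retinoic acid and was below the median in control, so at least 1.62-fold higher. Txnip is dim, and with the floor at the 70th percentile of signal its log2 ratio was 0.43. Txn1, which encodes cytosolic thioredoxin, had 4327 with retinoic acid and 4248 in control, a 1.02-fold difference whose sign turned under quantile and loess scaling.

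Glutathione synthesis genes were level or lower, and the recycling gene was higher. Gclm, the regulatory subunit of the rate-limiting ligase, had 235 with retinoic acid and 360 in control, 1.53-fold lower, and its second probe set gave the same 1.53-fold. Gclc, the catalytic subunit, had 149 with retinoic acid and 159 in control, 1.06-fold lower. Gss, which adds the last amino acid, had 219 and 271 on these arrays, 1.24-fold lower. Gsr, the reductase that regenerates glutathione, had 314 with retinoic acid and 207 in control, 1.52-fold higher, and 1.73-fold on its other probe set. None of the 4 passed 2-fold, and probe sets of one gene lay on the same side in each.

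Some genes that supply cysteine or break glutathione down were past 2-fold. Of 15 measured genes in a list of glutathione turnover and cysteine supply, 7 passed 2-fold on the lower side and 2 on the higher side. Over all measured genes these shares were 4.34% lower and 6.54% higher. The median log2 ratio of the list was −0.76. The lowest ratios were those of Chac1, which cleaves glutathione inside the cell (343 with retinoic acid, 2076 in control, 6.06-fold lower), and Cth, which makes cysteine from cystathionine (578 and 2229, 3.86-fold lower). Slc7a11, the cystine importer, had 94.04 in control and was below the median with retinoic acid, so at least 3.17-fold lower. Its partner chain gene Slc3a2, named after its value was seen, had 1076 with retinoic acid and 2787 in control, 2.59-fold lower. Also past 2-fold were Abcc4 (2.95-fold lower), Oplah (2.72-fold lower), Ggct (2.14-fold lower) and Anpep (2.75-fold higher), while Chac2, Ggt5 and Cdo1 lay within 1.12-fold. In the other direction Dpep1, a surface dipeptidase of the glutathione salvage route, was at least 3.89-fold higher. Chac1, Cth, Slc7a11 and Slc3a2 are also known targets of ATF4, the amino acid stress factor.

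Glutathione transferases couple glutathione to electrophiles, and 6 of the 9 in the set had a ratio below 1, none past 2-fold on the deposited scale. Over all 11884 measured genes 5754 had a ratio below 1. The 6 were the mu genes Gstm1, Gstm2 and Gstm5, with Gsta4 (alpha), Gstt1 (theta) and Mgst3. Gstm2 had 123 with retinoic acid and 241 in control, 1.95-fold lower. That is a log2 ratio of −0.96, or −1.02 and past 2-fold after quantile normalization. Gsta4, which clears the lipid peroxidation product 4-hydroxynonenal, had 292 with retinoic acid and 521 in control, 1.78-fold lower. Gstt1 had 40.6 and 65.0 on these arrays, 1.60-fold lower and close to the median signal. The other theta genes, named after their values were seen, were not lower: Gstt2 had 175 with retinoic acid and 128 in control, and Gstt3 115 and 114. Gstm1 had 122 with retinoic acid and 168 in control, 1.39-fold lower, and 1.36-fold and 1.30-fold lower on its next probe sets. A dim Gstm1 probe set was at least 2.07-fold lower. Gstm5 had 1264 with retinoic acid and 1508 in control, 1.19-fold lower.

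The mu genes lie side by side on chromosome 3, in the order Gstm5, Gstm7, Gstm6, Gstm3, Gstm2, Gstm1 and Gstm4 in the GRCm38.p6 annotation. Gstm6 was below the median on both arrays. Gstm3 and Gstm4 had log2 ratios of −0.61 and −0.50, so 5 of the 6 measured neighbours were lower, against 5754 of all 11884 measured genes. Gstm7 was the exception at 74.6 with retinoic acid and 55.7 in control, 0.42 on the log2 scale. These genes are close in sequence, and the probe sets behind Gstm1 and Gstm3 have suffixes that mark shared sequence or possible cross-hybridisation. Neighbours may therefore be read in part by the same RNA, and both the single values and the count of 5 are uncertain. Signs of the members Gstm1, Gstm2 and Gstm5 were the same under all 3 scalings.

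The remaining transferases were level or higher. Mgst1, a membrane-bound transferase, had 409 with retinoic acid and 251 in control, 1.63-fold higher. Gstp1, the pi form, had 3560 and 3073 on these arrays, 1.16-fold higher. Mgst3 had 183 with retinoic acid and 197 in control, 1.08-fold lower. Gsto1, the omega form, had 1630 with retinoic acid and 1501 in control, 1.09-fold higher, and 1.05-fold lower on its other probe set. Of 8 measured transferases outside the set none passed 2-fold, and their median log2 ratio was −0.18.

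By their brightest probe sets the regulators NRF2 and KEAP1 had nearly equal signals on the arrays, while 2 of their best known downstream enzymes were lower. Nfe2l2 had 1463 with retinoic acid and 1348 in control, 1.09-fold higher, and Keap1 327 and 359, 1.10-fold lower. A second Keap1 probe set had 252 with retinoic acid and 326 in control, 1.29-fold lower. Nqo1, the quinone reductase, had 60.9 with retinoic acid and 164 in control, 2.69-fold lower, on its only probe set. With the floor at the 70th percentile of signal the Nqo1 log2 ratio was −0.36 in place of −1.43. Hmox1, the inducible heme oxygenase, had 694 with retinoic acid and 1432 in control, 2.06-fold lower. Its log2 ratio of −1.05 stayed between −1.13 and −1.01 under the 11 alternatives, several of which could not change it.

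Textbook NRF2 targets within the set therefore did not share a direction. Of 9 measured, Txnrd1 passed 2-fold upwards, and Nqo1 and Hmox1 downwards. Srxn1 and Gsr were also above 0, and Gclm, Gclc, Gsta4 and Gstm1 below. The median log2 ratio was −0.47. Of 17 measured genes of NADPH supply and other NRF2 targets, 1 passed 2-fold, and the median was 0.056. That 1 was Aox1, an aldehyde oxidase, at 207 with retinoic acid and below the median in control, at least 7.82-fold higher. Among 7 measured partners and regulators of NRF2, 3 passed 2-fold, all of them higher, against 6.54% of all measured genes. Bach2 had 251 with retinoic acid and 42.7 in control (5.89-fold), Maff 167 and 39.3 (4.26-fold), and Bach1 752 and 361 (2.08-fold). MAFF is a small partner protein of these factors, and BACH1 represses Hmox1 and related genes at the sites that NRF2 uses.

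NRF2 binds the antioxidant response element, whose core was searched as TGACNNNGC or TGAGNNNGC on both strands. It was in 28.2% of the 39 antioxidant windows, covering 11 genes, and in 27.8% of all 32851. Within these windows the letters alone therefore do not set the genes apart. Shown are 3 NRF2 target genes with unlike ratios, each 300 bases of GRCm38.p6 on the plus strand with the core in capitals. They are Txnrd1 (chr10:82858956-82859255, log2 ratio 1.07), Srxn1 (chr2:152105274-152105573, 0.62) and Gclm (chr3:122245307-122245606, −0.61).
Txnrd1: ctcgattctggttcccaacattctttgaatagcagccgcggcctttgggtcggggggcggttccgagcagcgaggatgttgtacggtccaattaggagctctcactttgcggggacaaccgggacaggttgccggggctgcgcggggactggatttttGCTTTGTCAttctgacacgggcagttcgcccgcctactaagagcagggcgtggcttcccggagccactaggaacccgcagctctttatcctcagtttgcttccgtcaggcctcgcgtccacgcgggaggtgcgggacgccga
Srxn1: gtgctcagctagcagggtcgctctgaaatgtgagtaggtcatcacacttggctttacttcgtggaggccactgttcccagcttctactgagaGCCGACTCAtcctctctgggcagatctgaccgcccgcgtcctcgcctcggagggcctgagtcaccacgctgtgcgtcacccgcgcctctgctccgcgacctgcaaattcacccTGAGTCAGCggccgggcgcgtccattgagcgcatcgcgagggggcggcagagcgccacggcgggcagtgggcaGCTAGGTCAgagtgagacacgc
Gclm: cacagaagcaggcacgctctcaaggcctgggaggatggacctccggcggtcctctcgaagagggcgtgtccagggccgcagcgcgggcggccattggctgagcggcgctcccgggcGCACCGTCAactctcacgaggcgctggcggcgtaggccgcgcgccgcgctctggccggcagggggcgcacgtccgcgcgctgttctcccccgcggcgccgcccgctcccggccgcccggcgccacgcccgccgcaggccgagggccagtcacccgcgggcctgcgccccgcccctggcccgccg
Txnrd1 holds 1 core, from 92 to 84 bases before the start, and Gclm 1 core, from 134 to 126 bases before it, which overlaps a match to the metal response motif given for the metallothioneins. Srxn1 holds 3, and the one after its start overlaps a nuclear receptor half-site. The window of Nqo1, the gene with the lowest ratio, has no match to these letters. Gclc, Prdx6, Gsta4, Hmox1, Sod3 and Gsr had no window and were not searched, and sites outside the windows were not searched for any gene.

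Metallothioneins are small cysteine-rich proteins that bind zinc and copper and scavenge oxidants, and both were bright and level. Mt1 had 3787 with retinoic acid and 3663 in control, and Mt2 3867 and 3765. The Mt1 probe set has a suffix that marks shared sequence, so its value may not be of Mt1 alone. The other Mt1 probe set was below the median on both arrays, at 24.1 with retinoic acid and 16.6 in control. The log2 ratios, 0.048 and 0.039, turned below 0 under quantile normalization, and for Mt2 under loess too, and lie far inside the scatter between probe sets. The genes are neighbours on chromosome 8. Their windows are shown for the metal response element, searched as TGCACNC or TGCGCNC on both strands and printed in capitals. Mt1 spans chr8:94178839-94179138 and Mt2 chr8:94172368-94172667, both on the plus strand of GRCm38.p6.
Mt1: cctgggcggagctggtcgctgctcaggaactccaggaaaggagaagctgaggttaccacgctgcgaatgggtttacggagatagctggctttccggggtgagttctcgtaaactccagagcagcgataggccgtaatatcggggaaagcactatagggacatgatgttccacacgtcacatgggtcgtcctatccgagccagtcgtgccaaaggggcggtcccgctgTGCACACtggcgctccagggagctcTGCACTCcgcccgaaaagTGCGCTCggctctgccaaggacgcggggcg
Mt2: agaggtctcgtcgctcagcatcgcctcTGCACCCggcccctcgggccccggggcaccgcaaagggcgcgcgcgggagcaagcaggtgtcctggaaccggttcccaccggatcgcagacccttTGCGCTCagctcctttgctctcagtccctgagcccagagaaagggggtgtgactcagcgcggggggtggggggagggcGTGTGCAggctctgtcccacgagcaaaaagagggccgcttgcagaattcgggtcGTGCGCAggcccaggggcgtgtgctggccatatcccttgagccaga
Mt1 holds 3 matches and Mt2 holds 4, in a motif found in 25.7% of all windows and 28.2% of the antioxidant ones. An antioxidant response core also lies in the Mt2 window, from 79 to 71 bases before the start, apart from the metal matches. Mtf1, the zinc sensor that binds these elements, had 134 with retinoic acid and 135 in control. Of 16 measured genes of metal response and transport, 1 passed 2-fold, the metal importer gene Slc39a8, at 95.8 with retinoic acid and below the median in control. Its value was at least 3.61-fold higher.

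**Figure D3:**
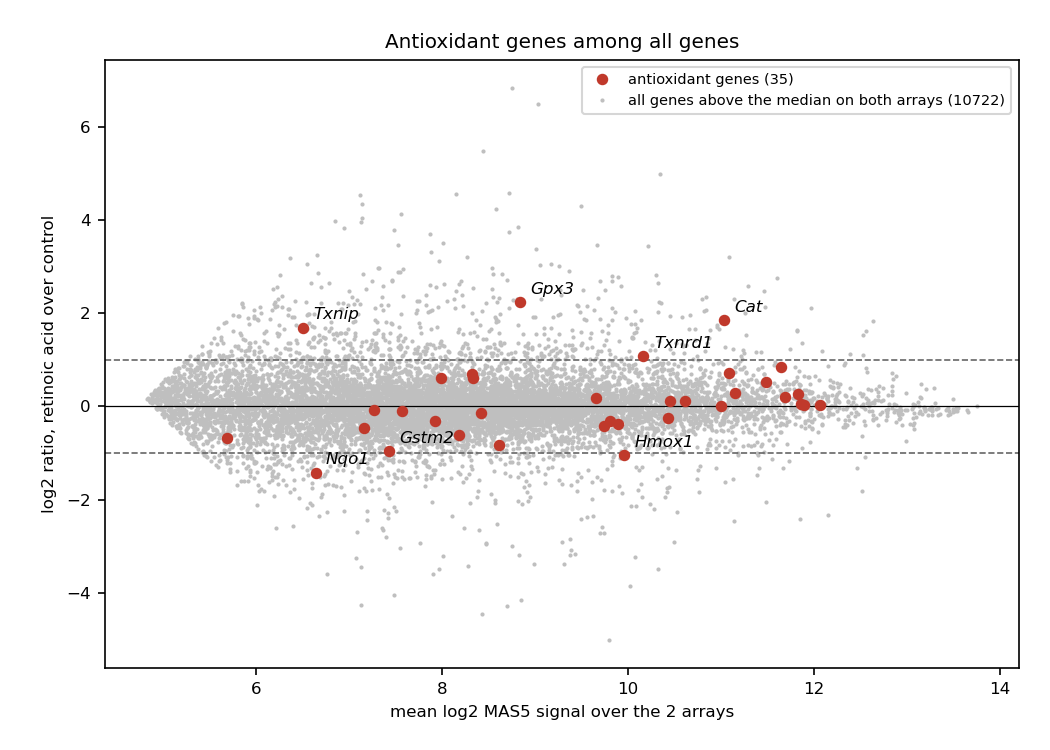
Log2 ratio of retinoic acid over control against the mean log2 MAS5 signal for the 35 antioxidant genes (red) and all 10722 genes above the median on both arrays (grey); dashed lines mark 2-fold. Gpx3 and Cat lie high in the cloud at their signal, Nqo1 and Hmox1 low, and most red points lie inside it.

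Sources of oxidants and other thiol enzymes had ratios on both sides of 1. Of 9 measured NADPH oxidase and other oxidant-producing genes 0 passed 2-fold in either direction, with a median log2 ratio of 0.030, and 4 of the 9 lay within 1.5-fold. Of 19 measured thioredoxin, glutaredoxin and peroxidase genes outside the set, 1 passed 2-fold, with a median of 0.048, and 11 of the 19 lay within 1.5-fold. Over all measured genes 8833 of 11884 lay within 1.5-fold. That gene was Nxn, which encodes nucleoredoxin, at 850 with retinoic acid and 358 in control, 2.37-fold higher.

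**Figure D4:**
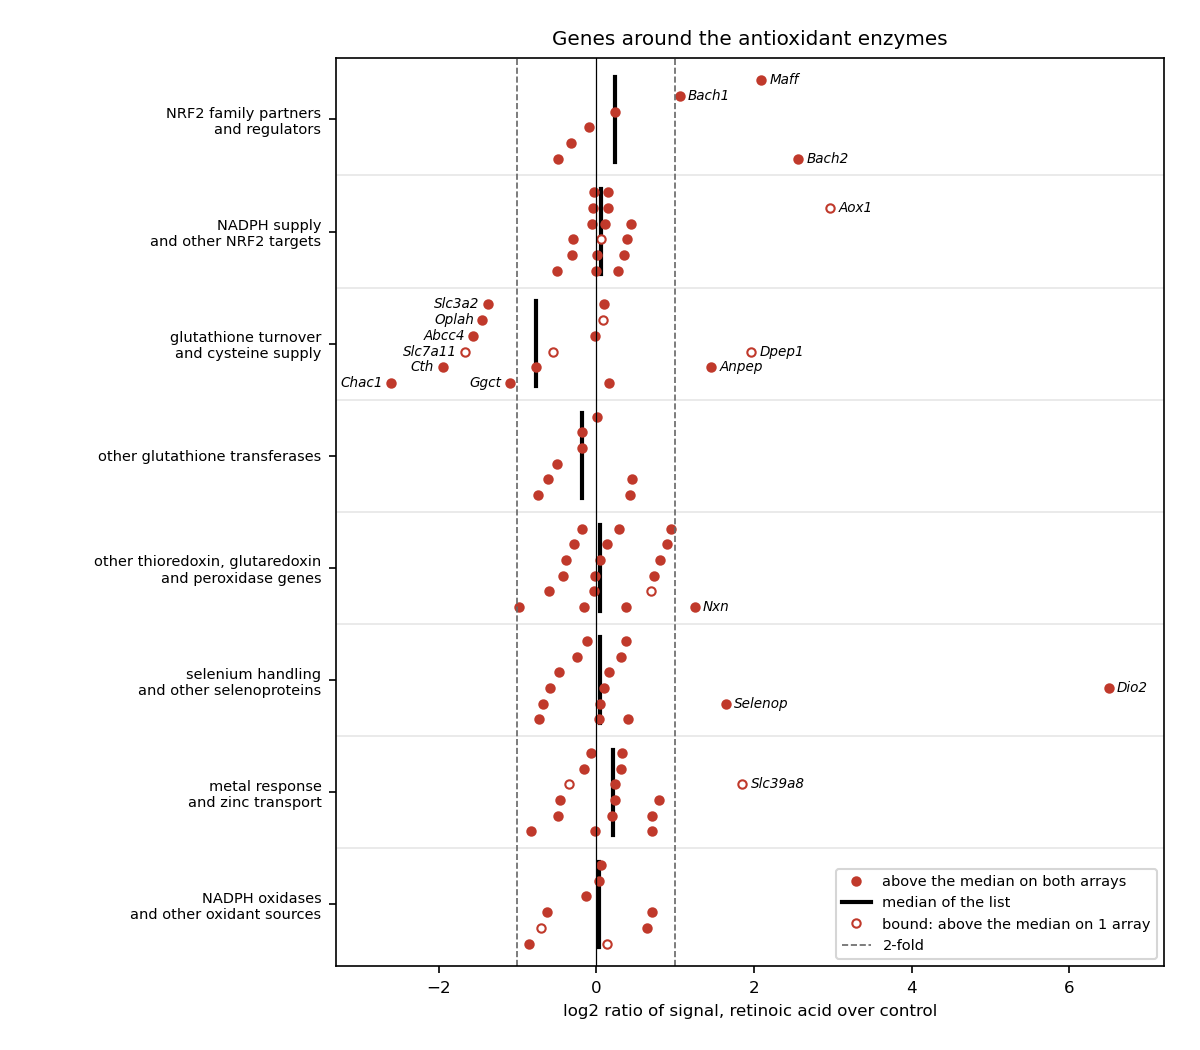
Log2 ratio of retinoic acid over control for measured genes of 8 lists around the antioxidant enzymes, none of them members of the set (filled, above the median on both arrays; open, a bound from 1 array); black bars mark list medians and dashed lines 2-fold. The list of glutathione turnover and cysteine supply has its median at −0.76, and the other 7 medians lie between −0.18 and 0.24.

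Marker genes of other joint cells were read on the same arrays. Erythroid cells are rich in catalase and peroxiredoxin 2, but the 3 erythroid markers read (Hba-a1, Alas2 and Slc4a1) were below the median on both arrays, with signals of at most 3.64. The 3 adipocyte markers were also below it on both. The 8 macrophage markers had a summed signal of 622 with retinoic acid and 545 in control. Of these 5 were measured, and Ptprc, C1qa and Tyrobp were below the median on both arrays. Of 6 endothelial markers 1 was measured. Smooth muscle markers summed to 5856 with retinoic acid and 4092 in control over 6 genes, with Rgs5 2.93-fold higher and Des 2.27-fold lower. Of 4 measured osteoblast markers, Sp7 was 3.01-fold and Alpl 2.05-fold lower, while Ibsp was 1.13-fold and Dmp1 at least 1.54-fold higher. Of 5 synovial fibroblast markers, Thy1 was 2.52-fold lower and Cd55 at least 2.06-fold lower. Vim, Dcn and Pdpn were 1.12-fold, 1.05-fold and 1.02-fold lower. The part of these cell types in the results was not tested.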

How the data were processed

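Biotin-labelled cRNA made from 100 ng total RNA per culture was hybridised to 1 array each, per the labels' protocols. The deposited values are intensities, linear MAS5 signals per probe set; MAS5 is named in the submitters' processing notes, and the sources used here state neither its version nor its scaling target or detection calls. No further scaling was applied. Probe sets were named by the platform annotation: of 45101 (64 of them array controls), 34945 had 1 symbol, 932 several and 9160 none, and only the first were used. All 35 genes kept their symbol in a current RefSeq gene table.

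Signals at or below the array median were raised to it. Each gene took its probe set of highest mean log2 signal. The log2 ratio is retinoic acid over control. A gene above the median on 1 array only has a bound ("at least"), and no fold where that bound falls on the wrong side of 1. Such genes stay in counts and medians. The 11 alternatives changed the floor, the scaling, the probe set of a gene or the genes counted. The number of arrays limits precision, and no test was possible. The steps were tested on simulated data, with changes planted only in bright genes and noise set to the probe set scatter. That did not test recovery of changes in dim genes such as Txnip and Nqo1, or differences between cultures.

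The genes and lists were chosen with earlier results of these data known. Every set gene is named, and from each surrounding list up to 4 measured genes with the largest ratios past 2-fold, with checks Cyp26b1, Rarb, Acan, Sox9, Col2a1 and Prg4. Chosen after their values were seen were Slc3a2, Abcc4, Oplah, Ggct, Anpep, Chac2, Ggt5, Cdo1, Txn2, Txnrd2, Glrx2, Mtf1, Gstt2 and Gstt3. So were Txnrd3, Msrb1, Ibsp, Dmp1, Vim, Dcn, Pdpn, the neighbours of the mu genes, and the genes of the closing section. Promoter windows came from RefSeq. Python 3.11.15, numpy 2.4.6, pandas 2.3.3, statsmodels 0.14.6 and matplotlib 3.10.9 were used.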

Additional observations from a re-analysis of the deposited data

How the results depend on the processing

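The 4 genes at least 2-fold higher were 3 to 5 under the 11 alternatives, and the 2 at least 2-fold lower were 1 to 3. With the floor at the 70th percentile of signal 1 gene was at least 2-fold lower, since Nqo1 then had a log2 ratio of −0.36, and Txnip was no longer past 2-fold at 0.43. By construction that floor compresses dim genes. After quantile normalization the split was 3 higher against 3 lower, since Txnrd1 (0.98) left and Gstm2 (−1.02) joined. With only probe sets unique to a transcript, 29 genes were measured and Txnrd1 had no value. With the median over probe sets Prdx2 (1.14) joined the higher genes. The median log2 ratio of the set lay between −0.075 and 0.043. Gpx3, Cat and Hmox1 were past 2-fold under all 11. Of 378 gene values under alternatives, 372 moved by less than the probe set scatter and 6 by more. No gene past 2-fold changed direction. Elsewhere 6 genes, all near a ratio of 1 (Sod3, Prdx4, Txn1, Gsto1, Mt1 and Mt2), changed sign under at least 1. Over all genes, 777 were past 2-fold higher and 516 lower. These were 2137 and 2106 without a floor, 449 and 260 with the floor at the 70th percentile, and 1101 and 832 at the 30th. Without a floor the set had 4 and 2 again, which was fixed since no set gene was at the floor. No paired analysis was possible because each group has 1 array.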

Other observations

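Txnip belongs to the arrestin-domain family, and its relatives were read after its value was seen. Arrdc3 had 1467 with retinoic acid and 259 in control, 5.67-fold higher, and Arrdc4, which shares the glucose-sensing factors MondoA and MLX with Txnip, had 188 and 39.0, 4.81-fold higher. Mlxip, the MondoA gene, had 210 with retinoic acid and 108 in control, 1.95-fold higher, and Mlx 191 and 181, 1.05-fold higher. Arrdc2 did not go with Arrdc3 and Arrdc4, at 23.1 with retinoic acid, below the median, and 28.03 in control, just above it. Mlxipl was below the median on both arrays.

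Catalase is a peroxisomal enzyme, and 27 other peroxisomal genes, also listed after its value was seen, had a median log2 ratio of −0.0035. Of these 1 was at least 2-fold higher, Abcd2, a fatty acid transporter gene (67.8 with retinoic acid, below the median in control, at least 2.56-fold). At least 2-fold lower were 2, Phyh, which starts the breakdown of phytanic acid (531 with retinoic acid and 1729 in control, 3.25-fold), and Pecr, an enoyl-CoA reductase gene (123 and 254, 2.07-fold). Genes of peroxisome assembly such as Pex5 (350 with retinoic acid, 310 in control) and Pex14 (187 and 171) were within 1.5-fold.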
